A study of Mus musculus with 12 samples.

Results

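Chemokine and NF-kB response genes were described in mouse testis RNA. The set had 10 genes of the 20718 in the table, taken by gene symbol. It comprised the CC chemokines Ccl2 and Ccl7, the CX3C chemokine Cx3cl1, the CXC chemokines Cxcl1, Cxcl10 and Cxcl12, the cytokines Il6 and Il1a, and the NF-kB inhibitors Nfkbia and Tnfaip3. The set was chosen by expression values of these libraries seen earlier, in which Ccl2 stood out between the control groups, so the control contrast is given for them as a description and without a test. The study was on lncRNA5251, a long non-coding RNA, in spermatogenesis. Testes of ICR male mice (written IRC in the labels) were injected with lentivirus at 4 weeks of age. The mice were raised for 5 weeks, mated for 4 days with normal females and kept another 4 days before collection. In F0_5251KD the virus carried a mix of shRNAs against lncRNA5251 on the LV3 backbone, and F0_3NC received the negative control of LV3. In F0_5251OV it carried full-length lncRNA5251 on the LV5 backbone, and F0_5NC received the LV5 vector. Each of the 4 groups had 3 libraries. All 12 libraries thus came from virus-injected testes, and an uninjected group was not analysed here. A cell-type-specific promoter was not given in the sources used here, so the cells that took up virus were not known. Nothing in the labels ties each library to an animal of its own, so every p-value reflects variation among these libraries only, and that variation may be technical. lncRNA5251 was matched to no gene name of the table, so the knockdown and the overexpression were not checked here.

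NF-kB is a family of transcription factors that is held in the cytoplasm by inhibitor proteins such as the product of Nfkbia. Signals from interleukin 1, tumour necrosis factor or bacterial products activate kinases that destroy the inhibitor, and NF-kB then enters the nucleus and turns on chemokines, cytokines and its own inhibitors. Chemokines attract white blood cells. Ccl2 and Ccl7 attract monocytes, Cxcl1 attracts neutrophils, Cxcl10 attracts activated T cells and is induced by interferon, and Cxcl12 retains stem cells in their niches and is made constantly by stromal and Sertoli cells. In the testis, resident macrophages lie beside the Leydig cells, and the tissue is held in an immune-privileged state.

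The letters of the regulatory DNA are given for members that represent both sides of the set. Of the 10 members, 8 were matched by symbol to a promoter of RefSeq (GRCm38.p6); Ccl2 and Ccl7 were not matched. The 300-base window ran from 250 bases before to 50 bases after the start. The kappaB consensus, the 10-letter motif that NF-kB binds, was searched on both strands and lay in the windows of 5 of the 8 members, and in 4.51% of all 32851 promoters of the same length. These 5 were Cxcl1, Cxcl10, Il6, Nfkbia and Tnfaip3. Both matches of Cxcl1 overlapped, 1 base apart on a near-palindrome that began 71 bases before the start. Its letters were not in the windows of Cx3cl1, Cxcl12 and Il1a, which says nothing of sites elsewhere. An AP-1 motif (TGACTCA or TGAGTCA) lay in the windows of 4 members, Cxcl10, Il6, Il1a and Tnfaip3, and in 5.2% of all promoters. The interferon-type core GAAANNGAAA lay in Cxcl10 alone among the members, and in 3.44% of all promoters. The 250 bases before the start, 5′ to 3′ on the gene's strand, are shown for 4 members: Cxcl1 and Cx3cl1, chemokines with a like pattern over the groups below with and without the motif, Nfkbia, the feedback inhibitor, and Cxcl10, which was too low to measure. Capitals mark the kappaB letters. The regions are chr5:90890995-90891244 (plus strand), chr8:94771930-94772179 (plus strand), chr12:55492648-55492897 (minus strand) and chr5:92348890-92349139 (minus strand).
Cxcl1: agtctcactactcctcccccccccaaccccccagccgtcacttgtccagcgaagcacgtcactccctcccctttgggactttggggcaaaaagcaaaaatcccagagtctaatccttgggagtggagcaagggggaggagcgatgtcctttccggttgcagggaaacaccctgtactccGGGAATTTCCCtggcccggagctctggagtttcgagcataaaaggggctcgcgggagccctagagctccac
Cx3cl1: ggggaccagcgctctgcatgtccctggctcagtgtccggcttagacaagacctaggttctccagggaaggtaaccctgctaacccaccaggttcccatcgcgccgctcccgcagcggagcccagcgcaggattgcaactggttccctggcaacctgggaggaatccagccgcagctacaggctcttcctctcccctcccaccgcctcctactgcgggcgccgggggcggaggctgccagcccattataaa
Nfkbia: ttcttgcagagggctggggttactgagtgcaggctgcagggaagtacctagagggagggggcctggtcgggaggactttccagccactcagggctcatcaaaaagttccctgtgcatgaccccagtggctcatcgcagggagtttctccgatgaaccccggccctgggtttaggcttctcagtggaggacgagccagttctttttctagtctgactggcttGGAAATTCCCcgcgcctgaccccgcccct
Cxcl10: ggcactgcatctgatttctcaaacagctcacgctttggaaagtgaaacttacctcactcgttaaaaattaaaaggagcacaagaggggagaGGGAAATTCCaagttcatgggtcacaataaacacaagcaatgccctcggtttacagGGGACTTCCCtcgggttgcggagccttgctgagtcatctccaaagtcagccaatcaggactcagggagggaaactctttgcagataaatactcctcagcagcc

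The libraries held 15431383 to 16355720 estimated counts, a ratio of 1.06, so precision was nearly equal over them. Levels are given as CPM (counts scaled to library size, with TMM factors) for a gene across libraries, and as FPKM (fragments scaled to transcript length and library size) between genes. The germ cell markers, which define the tissue, summed to between 10700 and 13800 CPM in every library. The first principal component (17.1% of the variance) set the LV3 groups F0_3NC and F0_5251KD, at -27.7 to -13.9, apart from the LV5 groups, at 0.5 to 28.5. On the second (14.4%), F0_3NC replicate 2 at -36.7 and F0_5251OV replicate 1 at -38.5 stood apart from the other 10 libraries, and results that rest on them are given with and without them. Within its group, F0_3NC replicate 2 held the highest level of 7 of the 8 measurable members, and F0_5251OV replicate 1 of 5. In bulk tissue, fewer cells of a type and less RNA per cell cannot be told apart.

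A gene entered the tests if it passed a filter on low counts, which 16296 genes did, and of the members 8 passed. Il6, the classical acute inflammatory cytokine, was too low to measure. It had 1 count in F0_5251KD replicate 2 and 0 in the other 11 libraries, each of which allows up to 3 counts, or 0.18 to 0.198 CPM. Cxcl10 was also too low to measure, with 100 counts over all 12 libraries and 10 or more in only 2 of them. The F0_3NC libraries had 7, 22 and 8 counts of it and the F0_5251KD libraries 6, 8 and 8. The F0_5NC libraries had 5, 24 and 5 counts and the F0_5251OV libraries 2, 1 and 4. Both libraries above 20 counts, F0_3NC replicate 2 and F0_5NC replicate 2, were also the highest of their groups for the summed interferon response genes, at 86.4 and 73.7 CPM against 25.8 to 47.9 CPM in the other 4 control libraries. Whether the interferon response has a part in the Cxcl10 counts was not tested. Ccl2, Ccl7 and Cxcl1 reached 10 counts only in the 6 libraries of F0_3NC and F0_5251KD, so they passed the filter through those groups alone.

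Of the measurable members, 4 were high in the LV3 groups and low in the LV5 groups. Ccl2 (gene ID 20296, mm10 chr11:82035577-82037452) was at 3.48, 3.53 and 2.51 CPM in F0_3NC, 1.52, 0.97 and 1.09 CPM in F0_5251KD, 0.24, 0.13 and 0 CPM in F0_5NC, and 0.25, 0.13 and 0.19 CPM in F0_5251OV. All 6 LV3 libraries lay above all 6 LV5 libraries, where Ccl2 rested on 0 to 4 counts each. Ccl7 (gene ID 20306, chr11:82045712-82047525), the neighbour of Ccl2 with 8259 bases between them, followed it. It was at 2.96, 4.38 and 1.98 CPM in F0_3NC, 1.46, 1.17 and 1.98 CPM in F0_5251KD, 0.36, 0.46 and 0.13 CPM in F0_5NC, and 0.13, 0.13 and 0.19 CPM in F0_5251OV. Again no LV3 library overlapped an LV5 library. The genes are related in sequence, and where the authors' counting shared reads between related genes their values are uncertain.

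Cx3cl1 (gene ID 20312, chr8:94772180-94782427), a membrane-bound chemokine that endothelium and epithelium make and that macrophages sense, was the most countable of the 4, with 25 or more counts in every library. It was at 7.60, 10.15 and 6.60 CPM in F0_3NC, 6.92, 4.73 and 4.15 CPM in F0_5251KD, 3.05, 2.51 and 2.81 CPM in F0_5NC, and 2.0, 2.48 and 1.61 CPM in F0_5251OV. The LV3 libraries again lay above the LV5 ones. Cxcl1 (gene ID 14825, chr5:90891245-90893121), the neutrophil chemokine whose promoter letters are shown above, was at 0.90, 2.61 and 1.12 CPM in F0_3NC, 1.59, 1.49 and 0.77 CPM in F0_5251KD, 0.30, 0.20 and 0.13 CPM in F0_5NC, and 0.56, 0 and 0.26 CPM in F0_5251OV. Its lowest LV3 library, at 0.77 CPM, was above its highest LV5 library, at 0.56 CPM.

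The other 4 measurable members showed no such split. Cxcl12 (gene ID 20315, chr6:117168535-117181368) had a mean of 25.49 ± 4.98 CPM in the F0_3NC group, 23.97 ± 3.61 in the F0_5251KD group, 30.83 ± 8.16 in the F0_5NC group and 26.87 ± 4.96 in the F0_5251OV group (SD, n = 3), and all groups overlapped. Il1a (gene ID 16175, chr2:129299609-129310186), an alarm cytokine released by damaged cells and made in the testis by Sertoli cells, ranged from 1.57 to 2.63 CPM over the 12 libraries. Its groups overlapped except F0_5251KD, at 1.78 to 2.07 CPM, and F0_5NC, at 2.11 to 2.52 CPM, which the design does not pair. Tnfaip3 (gene ID 21929, chr10:19000910-19015410), a ubiquitin-editing enzyme that ends NF-kB signalling, ranged from 2.19 to 4.70 CPM, with overlap of all groups. Nfkbia (gene ID 18035, chr12:55489409-55492647) is among the first genes that NF-kB turns on. It was at 11.21, 10.45 and 10.76 CPM in F0_3NC, 13.65, 13.28 and 12.83 CPM in F0_5251KD, 16.47, 12.02 and 13.36 CPM in F0_5NC, and 11.03, 10.44 and 10.46 CPM in F0_5251OV. F0_5251KD and F0_5NC were thus the higher groups for this gene, which is another order than that of the chemokines.

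**Figure D1:**
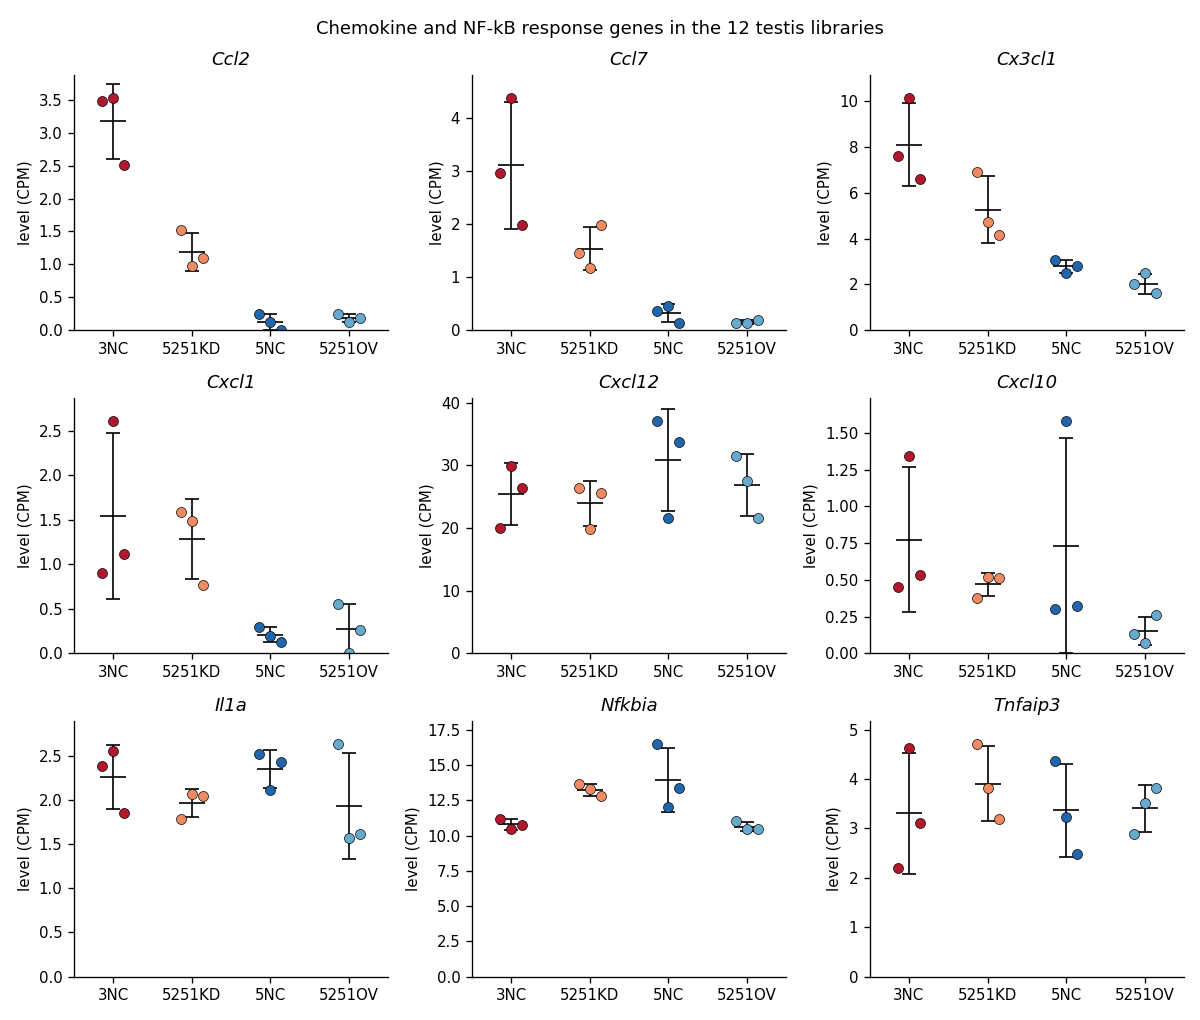
Level in CPM (vertical axes, from 0) of 9 members in the 3 libraries of each group, named on the horizontal axes without their prefix F0_; points are libraries, and bars are the mean and SD. Ccl2, Ccl7, Cx3cl1 and Cxcl1 are higher in every library of F0_3NC and F0_5251KD than in any of F0_5NC and F0_5251OV, and Cxcl12 and Tnfaip3 overlap in all groups; Il6, with 1 count in all, is left out.

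Between genes, Cxcl12 and Nfkbia were the highest members in every group on the FPKM scale. In F0_3NC, Cxcl12 was at 11.54 ± 2.83 FPKM, Nfkbia at 7.44 ± 0.20, Ccl2 at 4.71 ± 0.92, Ccl7 at 4.66 ± 1.91, Cx3cl1 at 2.68 ± 0.64, Cxcl1 at 1.89 ± 1.18, Il1a at 1.08 ± 0.22, Cxcl10 at 0.80 ± 0.53 and Tnfaip3 at 0.77 ± 0.29 (SD, n = 3). From Ccl2 to Tnfaip3 the range of each gene overlapped that of the next, so neighbours in this order are not told apart, but Ccl2, at 3.66 FPKM or more, was above the range of each gene from Cx3cl1 down. In F0_5251OV, Cxcl12 at 11.63 ± 2.74 FPKM and Nfkbia at 7.25 ± 0.39 were followed by Il1a at 0.87 ± 0.29, with Ccl2 at 0.28 ± 0.10 and Ccl7 at 0.22 ± 0.05. In that group the ranges of neighbours in the order overlapped from Il1a to Cxcl10. Over all 12 libraries, 70.8% of genes had a lower mean FPKM than Cxcl12, 42.2% a lower one than Ccl2 and 33.2% a lower one than Tnfaip3, so most members were modest in whole testis.

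The treated groups, F0_5251KD and F0_5251OV, hold the contrast of both backbones in libraries that the control contrast did not use, but backbone and treatment cannot be told apart in it. Cx3cl1, which had 25 or more counts in every library, was higher in F0_5251KD. Ccl7 and Ccl2 passed the test as well, where 0.288% of all genes were called higher and 0.00614% lower, but both had entered it through the groups in which they were high, so nothing is read from the number of members called. The test was edgeR's quasi-likelihood test with Benjamini-Hochberg adjustment over all genes, in 1 fit of the 12 libraries, for all adjusted p-values here. Cx3cl1 rose by 1.37 on the log2 scale (SE 0.25, 95% interval 0.84 to 1.90, adjusted p = 0.0353), or 2.59-fold. Ccl7 had a log2 fold change of 3.29 (SE 0.51, interval 2.2 to 4.38, adjusted p = 0.00933) and Ccl2 of 2.59 (SE 0.49, interval 1.53 to 3.64, adjusted p = 0.0464). With no filter on low counts, their adjusted p-values were 0.00622 and 0.0389 in edgeR. That fit does not undo the choice of the set with earlier results of these data known. The size of both differences is loose, because the F0_5251OV group held 7 counts of Ccl7 and 9 of Ccl2. Scaled to library size, Ccl7 had 10.3 times the counts in F0_5251KD (exact 95% interval 4.74 to 26.5) and Ccl2 6.21 times (3.05 to 14.3), where the intervals cover counting error only. Cxcl1 had a log2 difference of 2.18 (SE 0.67, interval 0.73 to 3.62) and did not pass (adjusted p = 0.441), with 3.23 without F0_5251OV replicate 1 and 1.62 without F0_5251OV replicate 2. No overlap between the groups, with F0_5251KD higher, was seen for 5 members, these 4 and Nfkbia, and for 6.82% of all genes. Ccl2, Ccl7 and Cxcl1 had entered the tests through the groups in which they were high, so nothing is read from this number. Nfkbia differed by 0.32 on the log2 scale (interval 0.06 to 0.57, adjusted p = 0.672). For Cxcl12 the difference was -0.16 (interval -0.61 to 0.28), for Il1a 0.02 (interval -0.51 to 0.55) and for Tnfaip3 0.20 (interval -0.40 to 0.79).

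These calls depended on single libraries. Without F0_5251OV replicate 1, which stood apart, no member passed, with adjusted p-values of 0.0742 for Ccl7 and 0.156 for both Cx3cl1 and Ccl2. Without F0_5251OV replicate 2 none passed either, at 0.0717 for Ccl7, 0.0645 for Cx3cl1 and 0.263 for Ccl2. Ccl2 lost its call without each of the 6 libraries in turn (0.0743 to 0.263), and with the replicate number as a block (adjusted p = 0.0673). Cx3cl1 lost it without F0_5251KD replicate 1 (0.21), F0_5251KD replicate 2 (0.0615) or F0_5251OV replicate 3 (0.146). The log2 fold changes stayed between 3.06 and 3.51 for Ccl7, 1.12 and 1.54 for Cx3cl1, and 2.37 and 2.82 for Ccl2.

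The control contrast, F0_3NC over F0_5NC, drew Ccl2 into the set and is described only. F0_3NC held 150 counts of Ccl2 and F0_5NC 6, a ratio of 25.2 per library size. Because this contrast drew Ccl2 into the set, that size may be overstated. The fitted log2 difference of Ccl2 was 4.57, with 5.44 without F0_5NC replicate 1 and 4.03 without F0_5NC replicate 3. Ccl7 differed by 3.27 (2.91 to 3.62 on leaving out each library), Cx3cl1 by 1.54 (1.35 to 1.66) and Cxcl1 by 2.84, with 2.23 without F0_3NC replicate 2 and 3.19 without F0_5NC replicate 1. For these 4 the libraries did not overlap, as for the 9.59% of all genes that were higher without overlap. Values of this contrast drew Ccl2 into the set, and Ccl2, Ccl7 and Cxcl1 passed the filter through LV3 groups alone. Nothing is read from the number of members without overlap. Nfkbia was lower without overlap, by 0.37 on the log2 scale (7.41% of all genes). Cxcl12, Il1a and Tnfaip3 lay at -0.27, -0.06 and -0.03.

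Knockdown was compared with its own control, F0_3NC, and 0 of 8 members passed, at an unadjusted p under 0.05 in 4. Of all genes, 0.0245% were called higher and 0.0% lower, and 773 genes had an unadjusted p under 0.05, while DESeq2 called 20 genes and no member. Ccl2 differed by -1.40 on the log2 scale (SE 0.34, interval -2.14 to -0.67, adjusted p = 0.696), with every F0_5251KD library below every F0_3NC library. Ccl7 differed by -1.02 (SE 0.34, interval -1.75 to -0.29, adjusted p = 0.897), also without overlap, though the nearest libraries were equal at the precision printed. Lower without overlap were 6.27% of all genes. Nothing is read from these 2 of 8, as F0_3NC values had drawn Ccl2 into the set. Cx3cl1 differed by -0.62 (interval -1.10 to -0.15, adjusted p = 0.897), with overlap. Nfkbia differed by 0.29 (interval 0.04 to 0.55, adjusted p = 0.897), with F0_5251KD higher without overlap (5.52% of all genes). Without F0_3NC replicate 2, Ccl2 was at -1.32, Ccl7 at -0.68 and Cx3cl1 at -0.43, and Cxcl1 turned from -0.28 to 0.34. This contrast and the control contrast share the F0_3NC libraries.

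Overexpression was compared with its vector control, F0_5NC, and again 0 of 8 members passed, with 1 at an unadjusted p under 0.05. Of the 8, Ccl2, Ccl7 and Cxcl1 were too low to measure in these groups. In this comparison 0.0% of all genes were called higher and 0.0% lower, though 1429 genes had an unadjusted p under 0.05 and DESeq2 called 30 genes and no member. Nfkbia differed by -0.39 on the log2 scale (SE 0.12, interval -0.65 to -0.13, adjusted p = 0.526) and Cx3cl1 by -0.46 (interval -1.01 to 0.09, adjusted p = 0.607). Both were lower in F0_5251OV without overlap, as were 6.57% of all genes. Ccl2 differed by 0.58 (interval -0.94 to 2.10), Ccl7 by -1.04 (interval -2.42 to 0.34) and Cxcl1 by 0.39 (interval -1.50 to 2.27). Each rested on 15 or fewer counts per group, and all these intervals included 0. They had passed the filter through the LV3 groups alone, so nothing is read from their not passing here.

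**Figure D2:**
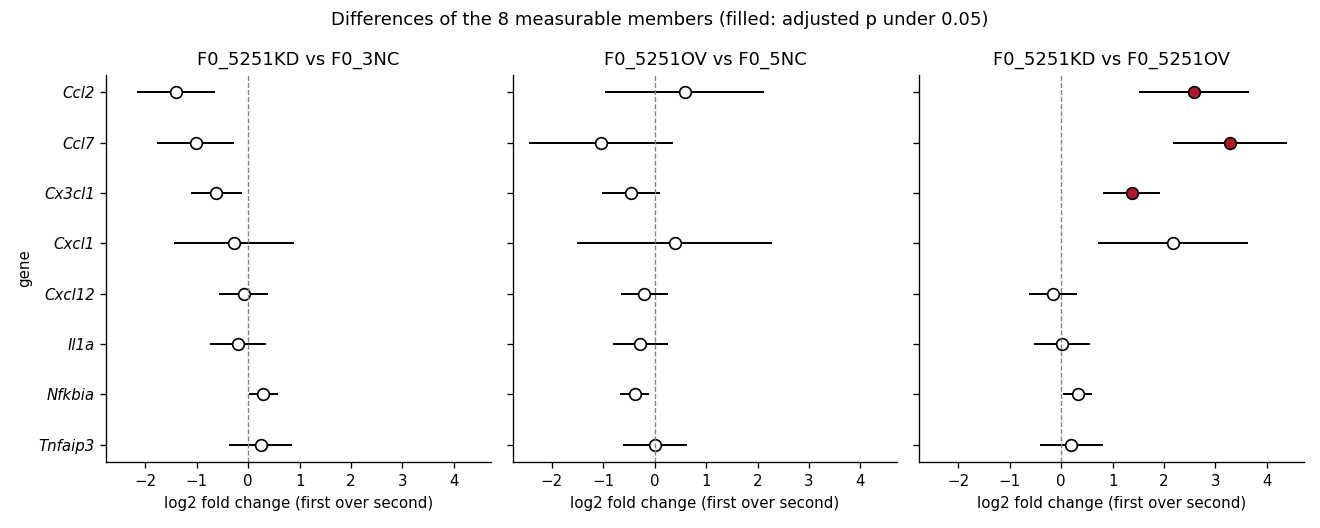
Log2 fold change, first group over second (horizontal axes), of the 8 measurable members (vertical axis) in 3 comparisons; points are edgeR estimates, lines 95% intervals, and filled points have an adjusted p under 0.05. Ccl7, Cx3cl1 and Ccl2 are filled in F0_5251KD vs F0_5251OV at 3.29, 1.37 and 2.59, and no point is filled in the other panels.

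Few other genes of the same pathways passed. Lists of chemokines, receptors, NF-kB subunits and kinases, inhibitors and targets held 85 other genes that were tested. None passed in F0_5251KD vs F0_3NC or in F0_5251OV vs F0_5NC, and 1 passed in F0_5251KD vs F0_5251OV, beside the background shares above. That gene was Ier3, an NF-kB target that modulates cell death, at 8.85 ± 2.23 CPM in F0_5251KD and 1.43 ± 0.27 CPM in F0_5251OV (SD, n = 3; log2 fold change 2.62, SE 0.25, adjusted p = 9.39e-05). The median log2 fold change of the 85 genes was 0.12 there, -0.03 in F0_5251KD vs F0_3NC and -0.08 in F0_5251OV vs F0_5NC, where the median of all genes was between -0.004 and -0.002. Of 14 other NF-kB targets tested, 12 were higher in F0_5251KD vs F0_5251OV (48.6% of all genes). Of them, 5 had an unadjusted p under 0.05 (979 of 16296 genes). Besides Ier3, Cd83 was at 2.11 against 0.387 CPM (adjusted p = 0.226) and Plaur at 1.0 against 0.151 CPM (adjusted p = 0.25). In F0_3NC and F0_5NC, Ier3 was at 7.79 and 1.54 CPM, Cd83 at 2.39 and 0.833, and Plaur at 1.21 and 0.185. These lists were chosen with earlier results known, so nothing is read from the numbers.

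Other CC chemokines gave 0 calls of 11 tested in each comparison. The smallest unadjusted p was that of Ccl12 in F0_5251KD vs F0_3NC, another monocyte chemokine of the Ccl2 cluster, at 0.383 against 1.64 CPM (adjusted p = 0.813). In F0_5251OV vs F0_5NC it was that of Ccl22, which attracts regulatory T cells, at 6.93 against 8.97 CPM (adjusted p = 0.536), and in F0_5251KD vs F0_5251OV that of Ccl24, an eosinophil chemokine, at 1.34 against 0.492 CPM (adjusted p = 0.396). Of the 5 other CXC and related chemokines none passed. Cxcl14 was at 1.39 CPM in F0_5251KD against 0.698 in F0_3NC (adjusted p = 0.897) and 0.580 in F0_5251OV (adjusted p = 0.415). Cxcl13, the B cell chemokine, was at 0.876 CPM in F0_5251OV against 0.150 in F0_5NC (adjusted p = 0.536). Of 12 chemokine receptors 0 passed. Ccr1, a receptor of Ccl7, had the smallest p in F0_5251KD vs F0_3NC (0.449 against 1.21 CPM, adjusted p = 0.897), the scavenger Ackr2 in F0_5251OV vs F0_5NC (0.766 against 0.416 CPM, adjusted p = 0.580), and Cxcr4, the receptor of Cxcl12, in F0_5251KD vs F0_5251OV (3.42 against 2.60 CPM, adjusted p = 0.880).

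Upstream cytokines and receptors, 12 tested, gave no call. Il1b, the other interleukin 1, was at 2.58 ± 0.29 CPM in F0_5251KD and 1.28 ± 0.25 in F0_5251OV (log2 difference 1.01, adjusted p = 0.15). Osmr, the oncostatin M receptor, was at 4.08 CPM in F0_5251KD and 6.03 in F0_3NC (adjusted p = 0.897), and Tnfrsf1b, a tumour necrosis factor receptor, at 2.12 CPM in F0_5251OV and 3.65 in F0_5NC (adjusted p = 0.552). The 17 NF-kB subunits and kinases, all of which were tested, summed to 232 to 260 CPM in every library and gave no call. The named kinases were Chuk, the IKK alpha kinase, in F0_5251KD vs F0_3NC (35 against 42.2 CPM, adjusted p = 0.897), Map3k7, the kinase TAK1, in F0_5251OV vs F0_5NC (48.0 against 39.8 CPM, adjusted p = 0.552) and Map3k14, the NF-kB-inducing kinase, in F0_5251KD vs F0_5251OV (6.68 against 4.67 CPM, adjusted p = 0.602). Of 14 other inhibitors and feedback genes none passed. Those with the smallest p were the Tnfaip3-binding protein genes Tnip2 in F0_5251KD vs F0_3NC (2.56 against 3.20 CPM, adjusted p = 0.897), and Tnip1 in F0_5251OV vs F0_5NC (10.5 against 14.4 CPM, adjusted p = 0.562) and also the IkB-like Bcl3 in F0_5251KD vs F0_5251OV (3.20 against 2.08 CPM, adjusted p = 0.657).

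**Figure D3:**
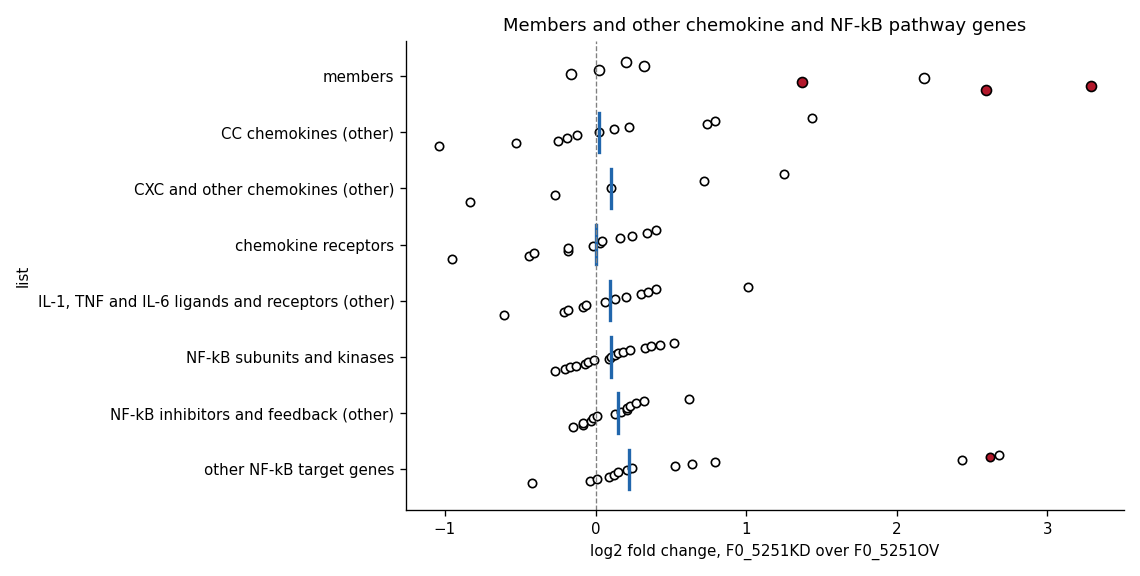
Log2 fold change of F0_5251KD over F0_5251OV (horizontal axis) for the 8 measurable members and for the tested genes of 7 pathway lists (vertical axis); each point is a gene, filled where the adjusted p is under 0.05, and blue lines are list medians. Ccl7, Ccl2 and Cx3cl1 are filled among the members and Ier3 among the other NF-kB target genes, at 2.62.

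The genes whose pattern over the 12 libraries was most like that of Ccl2 were found by the mean absolute difference of centred log2 CPM among 15164 genes with a mean of 1 CPM or more. They were Myc (0.60), a growth transcription factor, Ccl7 (0.64), Socs3 (0.70), a feedback inhibitor of cytokine signalling, Ier3 (0.76) and Medag (0.84), where the median gene had 1.82. Myc was at 4.68, 2.47, 0.443 and 0.385 CPM on average in F0_3NC, F0_5251KD, F0_5NC and F0_5251OV, and Socs3 at 10.9, 5.49, 1.59 and 1.11 CPM. Medag was at 12.1, 4.60, 1.38 and 2.18 CPM in the same order. Cx3cl1 ranked 22 (1.11), and Tnfaip3, Il1a, Nfkbia and Cxcl12 ranked from 3876 to 14087. Cxcl1 was not ranked because its mean was under 1 CPM. The ranking used the control values by which Ccl2 was chosen, and Ccl2 rested on 0 to 4 counts in each LV5 library. Members without the split, such as Tnfaip3 (1.79) and Nfkbia (1.83), lay near the median difference. Whether the genes share regulation was not tested.

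The summed white blood cell markers overlapped between F0_5251KD and F0_5251OV. Of 12 macrophage markers 0 passed in any comparison. Aif1 made up most of their sum, and without it, a step chosen after its values were seen, the other 11 summed to at most 137 CPM in F0_3NC, to 105 to 147 in F0_5251KD, to 111 to 161 in F0_5NC and to 108 to 111 in F0_5251OV. Among them, Cd14, a co-receptor for bacterial lipopolysaccharide, was at 4.89 ± 0.57 CPM in F0_5251KD and 1.5 ± 0.56 in F0_5251OV (log2 difference 1.70, adjusted p = 0.196). The 10 neutrophil markers summed to 0.969 to 1.80 CPM in every library, and S100a8, their defining gene, had 2 counts in each group. The 10 T and NK cell markers summed to 8.08 to 14.1 CPM and the 4 B cell markers to 1.19 to 2.70 CPM. Cd3d made up most of the T and NK cell counts, at 311 to 325 per group against 6 to 11 of Cd3e. That sum thus follows mainly Cd3d.

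Immediate early genes, which cells switch on soon after a stimulus, differed between the groups too. Their 15 genes summed to 346 to 389 CPM in F0_3NC and to 545 to 617 in F0_5251KD, but to 241 to 257 in F0_5NC and 205 to 272 in F0_5251OV. In F0_5251KD vs F0_5251OV all 15 were higher and 12 were called, where 0.288% of all genes were called higher. Egr1 was at 106 against 3.44 CPM (adjusted p = 4.02e-09) and Fos at 11.5 against 0.472 CPM (adjusted p = 2e-06). The list was chosen after its values were seen, so nothing is read from the number called. In F0_5251KD vs F0_3NC all 15 were higher and 4 were called, namely Btg2, Egr1, Zfp36 and Fos. These were the 4 genes called higher of all genes tested (0.0245%). The values of Ccl2, Ccl7 and Cx3cl1 were lower there. Markers of endothelium, which can make Cx3cl1, summed to 54.7 to 60.4 CPM in F0_5251KD and 43.9 to 50 in F0_5251OV. All 10 were higher and 0 were called. In F0_3NC they summed to 47.2 to 50.1 CPM and in F0_5NC to 50.7 to 57.4. There 1 of 10 was higher in F0_3NC, while the value of Cx3cl1 was higher. In F0_5251KD vs F0_3NC all 10 were higher, while the value of Cx3cl1 was lower. Sertoli cell markers summed to 190 to 208 CPM in F0_5251KD and 179 to 187 in F0_5251OV (8 of 8 higher, 0 called). Leydig cell markers summed to 1890 to 2950 and 1380 to 2030 CPM in these groups (6 of 6 higher, 0 called). Among them, Cyp11a1, which starts steroid synthesis, differed by 0.95 on the log2 scale (adjusted p = 0.0901). Peritubular myoid markers summed to 90.9 to 94.3 and 61.7 to 73.1 CPM (5 of 5 higher), with Tagln called (log2 fold change 1.0, adjusted p = 0.00455). Epididymis markers summed to 2.10 to 4.92 and 5.30 to 75.9 CPM in the same groups (0 of 3 higher). They summed to 5.35 to 11.4 CPM in F0_3NC and to 18.4 to 116 in F0_5NC. There 0 of 3 were higher in F0_3NC and 1 was called lower, as were 0.0552% of all genes. Of Sertoli, Leydig and peritubular myoid markers, 0 of 8, 3 of 6 and 2 of 5 were higher in F0_3NC than in F0_5NC. Of all genes, 48.6% were higher in F0_5251KD than in F0_5251OV, 50.1% in F0_3NC than in F0_5NC, and 49.1% in F0_5251KD than in F0_3NC. The part of these markers in the chemokine differences was not tested.

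**Figure D4:**
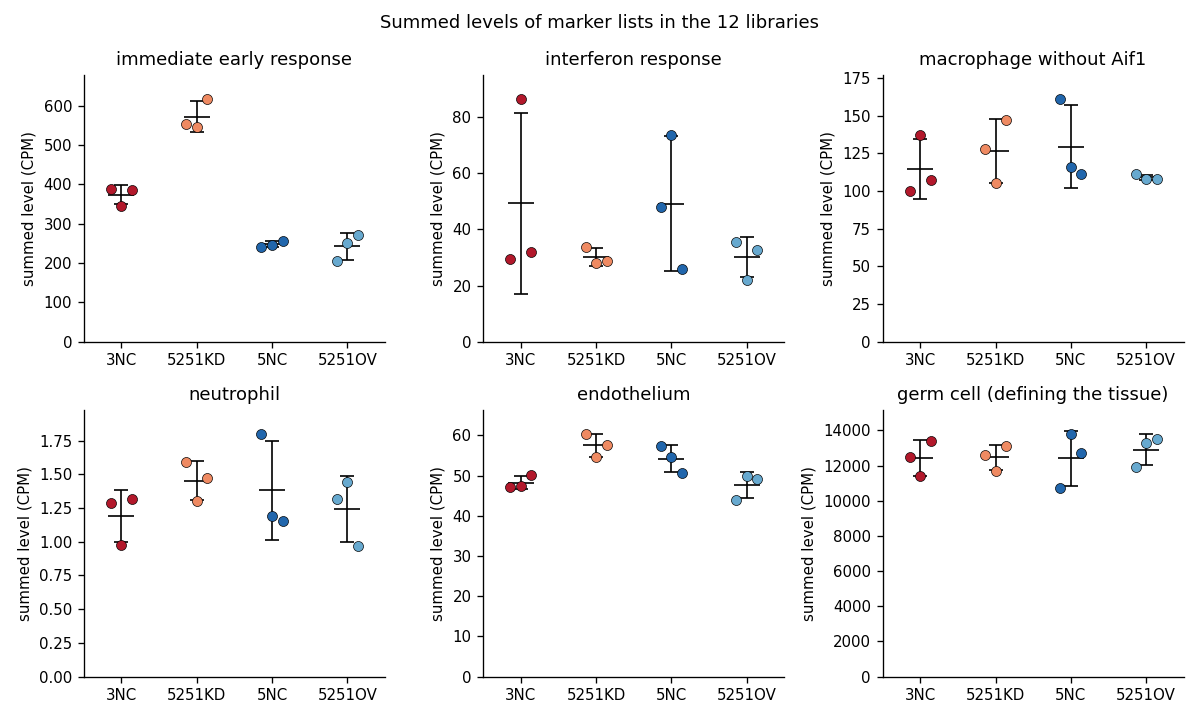
Summed level in CPM (vertical axes, from 0) of 6 marker lists in the 3 libraries of each group, named on the horizontal axes without their prefix F0_; points are libraries, and bars are the mean and SD. The immediate early sum is highest in F0_5251KD, at 545 to 617 CPM, and the interferon sum has high libraries in F0_3NC (86.4) and F0_5NC (73.7), while macrophage, neutrophil and germ cell sums overlap between F0_5251KD and F0_5251OV.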

How the data were processed

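Testis RNA of 12 libraries was sequenced by the authors as 4 groups of 3, assigned from the titles. The authors deposited 1 table that holds, for every gene, estimated counts and FPKM in each library, and the labels name build mm10. The study's methods describe oligo(dT)-enriched mRNA, random-hexamer cDNA and alignment to reference genes with SOAPaligner. The tool that made the estimated counts, and whether strand was used, are not given in the sources used here. Of the estimated counts deposited, 12.0% were not whole (tolerance 1e-06), and they were rounded. Columns that match no sample (18) were not used.

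edgeR 4.0.16 in R 4.3.3 was run on all 12 libraries (TMM scaling, factors 0.97 to 1.078, filterByExpr, quasi-likelihood F test, two-sided), and p-values were adjusted over 16296 genes at a threshold of 0.05. Standard errors were taken as the fitted log2 difference over the root of F. The code was tested on simulated counts. Alternatives were DESeq2 1.42.0, limma 3.58.1 on log2(FPKM + 1) and log2(FPKM + 0.1), other scalings and filters, both groups alone, a replicate block and leaving out each library. Fold changes on the log2(FPKM + pseudocount) scale understate low genes. Counting floors (3 counts) cover counting error only.

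The members and lists were chosen with earlier results of these data known. Named genes were the members, per pathway list the genes past the threshold or else that with the smallest p in each tested comparison, and the 5 genes most like Ccl2 (prior count 0.5). The immediate early and marker genes, Cd14, Cyp11a1, Tagln, Cd83 and Plaur were chosen after their values were seen.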

Additional observations from a re-analysis of the deposited data

How the results depend on the processing

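The counts of calls moved with the tool more than with scaling or filters. In F0_5251KD vs F0_3NC, 4 genes were called, and DESeq2 called 20, limma on log2(FPKM + 1) called 2, limma on log2(FPKM + 0.1) called 0 and the replicate block 2, with 0 to 4 when each library was left out. In F0_5251OV vs F0_5NC, 0 genes were called by edgeR, and DESeq2 called 30, no filter on low counts 3 and both groups alone 3, with 0 to 1 on leaving out a library. In F0_5251KD vs F0_5251OV, 48 genes were called and DESeq2 called 103, with 29 to 43 on leaving out a library. Of the members, 3 were called there, limma on log2(FPKM + 0.1) called 1, and leaving out a library gave 0 to 2. In F0_3NC vs F0_5NC, 54 genes were called and DESeq2 called 138, with 30 to 54 on leaving out a library (30 without F0_5NC replicate 3, 35 without F0_3NC replicate 2).

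Past the threshold in F0_5251KD vs F0_5251OV were Ccl7 in 12 of 14 alternatives, Cx3cl1 in 6 and Ccl2 in 5. The alternatives reuse the same libraries. Ccl7 and Ccl2 had entered the test through the groups in which they were high, so nothing is read from their tallies. Ccl2 was lost with upper-quartile scaling (adjusted p = 0.0504 in edgeR) and with limma on log2(FPKM + 0.1) (adjusted p = 0.0853), and Cx3cl1 with limma on log2(FPKM + 1) (0.112), limma on log2(FPKM + 0.1) (0.067) and both groups alone (0.0693); the cause was not tested. No member passed under any alternative in the other tested comparisons. Log2 fold changes near 0 changed sign in places. On leaving out a library, Cxcl1 ranged over -0.55 to 0.34 in F0_5251KD vs F0_3NC (0.34 without F0_3NC replicate 2) and from -0.66 (without F0_5251OV replicate 1) to 0.95 in F0_5251OV vs F0_5NC, where limma on log2(FPKM + 0.1) gave -0.11. Cxcl12 in F0_5251KD vs F0_3NC lay from -0.24 to 0.04 (0.04 without F0_3NC replicate 2, 0.03 without F0_5251KD replicate 2). Tnfaip3 in F0_5251OV vs F0_5NC was at -0.01 with upper-quartile scaling and with limma on both pseudocounts, at -0.0012 with a filter of 1 CPM in 3 libraries, and from -0.16 to 0.25 on leaving out a library (-0.16 without F0_5NC replicate 3, -0.02 without F0_5NC replicate 2, -0.08 without F0_5251OV replicate 3, -0.01 without F0_5251OV replicate 2). Il1a in F0_5251KD vs F0_5251OV lay from -0.11 to 0.3, below 0 at -0.03, -0.02, -0.11 and -0.1 without F0_5251KD replicates 2 and 3 and F0_5251OV replicates 2 and 3. For Ier3 the range was -0.03 (without F0_5251KD replicate 1) to 0.33 in the knockdown comparison and -0.28 to 0.14 (without F0_5NC replicate 1) in the overexpression comparison. The replicate numbers did not pair the libraries, as same-numbered deviations correlated at -0.193 to 0.092; with the replicate block, Ccl2 lost its call in F0_5251KD vs F0_5251OV (adjusted p = 0.0673) and 2 members passed. Ccl2, Ccl7 and Cxcl1 rest on 0 to 9 counts in the LV5 libraries, which limits their precision.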
